A study of Mus musculus with 8 samples.

Results

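Genes of glycolysis and of the hypoxia-inducible factor (HIF) pathway were described here as a set of 40 among the 30660 gene identifiers counted in primary mouse cells of vascular smooth muscle (VSMCs), the contractile cells of blood vessel walls. Of these, 30 encode glucose and lactate transporters, glycolytic enzymes and the kinases that steer them, and 10 encode HIF alpha subunits, HIF prolyl hydroxylases and HIF targets outside glycolysis. Members were chosen by name and kept where at least 10 counts were found in at least 4 libraries. All 40 met this, and all 40 were among the 16150 genes tested. RNA sequencing was done on 4 libraries of Sox6 knockdown cells (titles sisox6) and 4 libraries of control cells (titles nc, labelled WT for genotype and treatment). Both groups carry the same cell type label, and the labels used here give no mouse strain, age, passage, oxygen level or glucose concentration, nor the reagent of the knockdown. No label states that replicates are separate animals or cultures. The p-values therefore reflect spread among libraries that could be purely technical.

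Glycolysis turns glucose into pyruvate in a chain of enzyme steps, and lactate dehydrogenase and the monocarboxylate transporters carry the carbon on to lactate outside the cell. Most steps can be run by several isoforms encoded by separate genes, which differ in kinetics, location and usual tissue. HIF is a dimer of an oxygen-labile alpha subunit (Hif1a or Epas1) and a stable beta subunit. Prolyl hydroxylases mark the alpha subunit for breakdown when oxygen is present. Many glycolytic genes are HIF1 targets, and VSMCs that leave the contractile state are known for a higher rate of glycolysis.

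Levels are given as CPM, a gene's counts scaled to library size. Total counts ran from 37604102 to 49393224 in the knockdown libraries and from 41672921 to 48039788 in the control libraries. Sox6 itself was near the detection limit, with 2, 4, 0 and 0 counts in the knockdown libraries against 6, 10, 6 and 4 in the controls (two-sided exact permutation test on CPM, p = 0.0286, the smallest that 4 against 4 can give). All of these counts are even, and the sources used here do not say whether both reads of a pair were counted. If so, the Sox6 difference rests on fewer molecules than its counts. Summed smooth muscle markers ran from 1319 to 1518 CPM in the knockdown and from 1808 to 2086 in the control libraries, with 5 of 9 tested genes lower and none higher. Acta2 and Cald1 made up most of that sum. Acta2 averaged 949 ± 102.5 CPM in knockdown and 1240 ± 136.1 CPM in control libraries. Cald1 averaged 402.5 ± 21.33 CPM in knockdown and 650.5 ± 11.44 CPM in control libraries. On the smooth muscle list, Myh11 (7.281 CPM in knockdown and 5.898 CPM in control libraries), Cnn1, Lmod1 and Synpo2 were low and did not pass. Of that list, Tagln held only 38 counts over the knockdown and 20 over the control libraries. Its exons overlap those of Gm48529 and Pcsk7 over 67.9% of their length, and reads there cannot be assigned without strand. The part of this overlap in its low count was not tested, and that count alone is no firm measure of its expression. Markers of heart and striated muscle summed to 26.0 to 98.0 CPM in the knockdown and 257 to 365 CPM in the control libraries, and 6 of 6 were lower. Mesothelial markers summed to 40.5 to 46.8 CPM in knockdown and 109 to 116 CPM in control libraries (4 of 4 lower). Endothelial markers summed to 4.89 to 6.53 CPM in knockdown and 9.26 to 11.5 CPM in control libraries (5 of 6 lower, Vwf higher), and fibroblast markers to 307 to 359 CPM in knockdown and 270 to 315 CPM in control libraries. Of 5 fibroblast markers, 2 were higher (Pdgfra and Pi16) and 1 lower (Dpt). Most of the fibroblast sum was Dcn, at 247 ± 17.4 CPM in knockdown and 257 ± 19.4 CPM in control libraries. Pdgfra averaged 78.3 ± 11.6 CPM in knockdown and 38.6 ± 1.26 CPM in control libraries. Macrophage and leukocyte markers summed to 34.9 to 39.8 CPM in knockdown and 33.3 to 38.1 CPM in control libraries. Most of that sum was Csf1r, which did not pass, while 1 of 3 tested genes, Cd68, was higher (0.87 on the log2 scale). Ptprc held only 20 counts over the knockdown and 13 over the control libraries, and Adgre1 4 over each group. Neither of them had enough counts to be tested. Red cell markers summed to 0.996 to 2.98 CPM in knockdown and 6.17 to 8.65 CPM in control libraries (2 of 3 lower). Mitochondrial genes took 2.48% to 2.82% of counts in knockdown and 2.18% to 2.25% in control libraries. The part of these markers and of the mitochondrial share in the results on members was not tested. In bulk RNA, fewer cells of a type and less RNA per cell cannot be told apart.

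Most glycolytic transcripts were modestly less abundant after Sox6 knockdown, and the glycolytic genes that rose were minor isoforms of their step. By edgeR's quasi-likelihood test, with a Benjamini-Hochberg adjusted p under 0.05 over all tested genes, 24 of the 40 members fell (60.0%) and 6 rose (15.0%), while 10 did not pass. Over all 16150 tested genes 26.0% fell and 25.4% rose. In 25 members (62.5%) the 4 knockdown values lay wholly outside the range of the 4 controls, 21 of them below and 4 above, beside 46.9% of all tested genes. The members' median log2 fold change, knockdown minus control, was -0.25, beside 0.02 over all tested genes. Changes were small. Only Aldoc and Adm differed by more than 2 fold, and values ran from -1.33 to 1.09 on the log2 scale.

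The 30 glycolysis genes took up 1.56% ± 0.0627 of all counts in knockdown and 1.83% ± 0.0752 in control libraries (SD, n = 4 each). Of these genes 18 fell (60%), 4 rose (13.3%) and 8 did not pass, with a median log2 fold change of -0.23. Among the 22 transporters and enzymes from glucose uptake to lactate export, 14 fell (63.6%) and 3 rose (13.6%), with a median of -0.30. Among the 8 regulators, the Pfkfb and Pdk kinases, 4 fell (50%) and 1 rose (12.5%), with a median of -0.18. These shares stand beside 26.0% lower and 25.4% higher of all tested genes. Scaling by total counts in place of TMM raised the median of all tested genes to 0.12, and the split over all genes became 3045 lower and 5926 higher, against 4206 lower and 4105 higher with TMM. Under it, 13 glycolysis genes were called lower and 4 higher, the lost calls being Pfkl, Pfkp, Pgam1, Pdk1 and Pdk3. The members had a median coefficient of variation between replicates of 5.33% in knockdown and 6.61% in control libraries, beside 7.89% in knockdown and 7.28% in control libraries over all tested genes. These medians were not matched for expression level, so they do not mark the lower spread as a trait of the set.

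**Figure D1:**
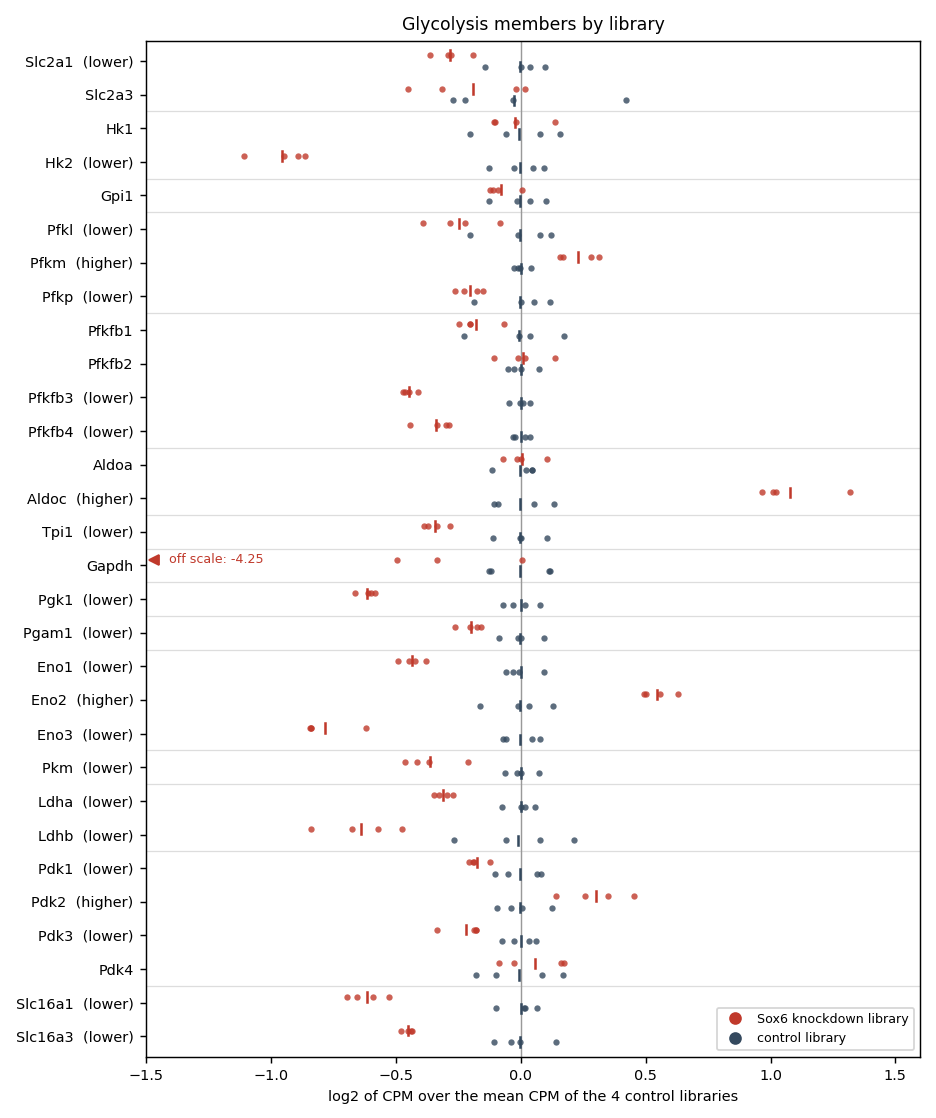
Each row is a glycolysis gene, ordered by step, and the horizontal axis gives log2 of CPM over the mean CPM of the 4 control libraries. Red points are the 4 knockdown and dark points the 4 control libraries, vertical bars are group means of the log2 values, and the words beside the names give the edgeR call. Most red points lie left of 0, Aldoc and Eno2 lie to the right, and Gapdh in knockdown replicate 4 lies off the scale at -4.25, so no knockdown mean is drawn for it.

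The promoters of 6 glycolysis genes, picked after their values were seen, are shown because HIF binds a short core, ACGTG or GCGTG, and because these genes moved in both directions and differ in how many cores they hold. The sequences are the 250 bases before the RefSeq start in GRCm38.p6, written 5' to 3' on the gene's strand, with every match to the core on either strand in capitals. A CACGTG, the E-box bound by other basic helix-loop-helix factors, holds the core on both strands and counts as 2 matches. Hexokinase 2, phosphoglycerate kinase and the lactate transporter Slc16a1 fell, triose phosphate isomerase fell with no core in its window, and Aldoc and Eno2 rose.
Hk2, chr6:82774455-82774704, minus strand: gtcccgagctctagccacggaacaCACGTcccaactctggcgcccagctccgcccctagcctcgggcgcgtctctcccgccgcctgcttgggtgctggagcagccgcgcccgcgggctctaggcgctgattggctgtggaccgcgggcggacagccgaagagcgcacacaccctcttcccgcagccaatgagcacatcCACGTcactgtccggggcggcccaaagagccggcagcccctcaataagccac
Pgk1, chrX:106186850-106187099, plus strand: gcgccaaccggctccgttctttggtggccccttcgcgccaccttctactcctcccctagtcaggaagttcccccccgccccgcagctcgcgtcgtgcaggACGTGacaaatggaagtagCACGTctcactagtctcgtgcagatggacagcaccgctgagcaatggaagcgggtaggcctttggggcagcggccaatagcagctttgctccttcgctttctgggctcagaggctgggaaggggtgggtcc
Slc16a1, chr3:104638414-104638663, plus strand: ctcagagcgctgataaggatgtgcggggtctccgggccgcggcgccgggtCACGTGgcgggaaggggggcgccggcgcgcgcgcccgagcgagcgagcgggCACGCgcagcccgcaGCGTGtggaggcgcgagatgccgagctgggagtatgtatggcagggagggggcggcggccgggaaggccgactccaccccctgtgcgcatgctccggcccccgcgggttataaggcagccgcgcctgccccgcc
Tpi1, chr6:124814159-124814408, minus strand: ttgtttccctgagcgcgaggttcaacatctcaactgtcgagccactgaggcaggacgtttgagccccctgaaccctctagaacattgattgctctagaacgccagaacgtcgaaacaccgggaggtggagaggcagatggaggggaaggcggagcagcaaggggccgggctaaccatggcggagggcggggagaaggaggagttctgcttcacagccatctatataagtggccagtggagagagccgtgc
Aldoc, chr11:78322823-78323072, plus strand: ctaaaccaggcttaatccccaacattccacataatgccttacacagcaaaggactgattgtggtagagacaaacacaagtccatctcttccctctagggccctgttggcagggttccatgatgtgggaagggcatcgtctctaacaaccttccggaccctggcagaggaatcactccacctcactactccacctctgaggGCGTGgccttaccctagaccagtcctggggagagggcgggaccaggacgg
Eno2, chr6:124769674-124769923, minus strand: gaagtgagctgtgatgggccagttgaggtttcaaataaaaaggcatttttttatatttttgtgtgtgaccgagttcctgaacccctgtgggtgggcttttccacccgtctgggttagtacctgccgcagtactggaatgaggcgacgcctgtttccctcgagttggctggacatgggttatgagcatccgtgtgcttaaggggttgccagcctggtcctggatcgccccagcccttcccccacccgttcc

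The windows held 2 matches for Hk2, 2 for Pgk1, 4 for Slc16a1, 0 for Tpi1, 1 for Aldoc and 0 for Eno2. RefSeq gave a window for 37 members, and 34 of them (91.9%) had a core in at least 1 window, beside 41.5% of 27025 genes with a window. By window, 44 of 59 (74.6%) held a core, beside 38.6% of 32851 windows in all. Members' windows were richer in G and C, with a median of 59.2% beside 52.4%. Members also had more windows per gene, and the 27025 genes were not limited to those tested here. The shares were matched for none of these, so they do not mark the cores as a trait of the set. Cores were found under every call, in 22 of 23 members that fell, 5 of 6 that rose and 7 of 8 that did not pass. A CACGTG was present for 7 members (18.9%), beside 6.86% of genes. A match is a description of these letters and no evidence of binding.

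Glucose enters through facilitative transporters. Slc2a1, the ubiquitous transporter GLUT1, had 201, 191.5, 203 and 216 CPM in the knockdown libraries and 246, 253, 223 and 263 CPM in the controls. The groups did not overlap, and Slc2a1 fell by 0.28 ± 0.05 (SE) on the log2 scale (edgeR adjusted p = 4.33e-04). Slc2a3, the high-affinity GLUT3, averaged only 5.37 ± 0.838 CPM in knockdown and 6.08 ± 1.43 CPM in control libraries and did not pass (-0.18, edgeR adjusted p = 0.349).

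Hexokinase traps glucose as glucose 6-phosphate, and its isoforms parted. Hk2, the inducible hexokinase (chr6:82725025-82774454, minus strand, mm10), had 285, 269, 280 and 240 CPM in the knockdown libraries and 510.5, 554, 476 and 537 CPM in the controls. Every knockdown library was far below the lowest control, and Hk2 fell by 0.95 ± 0.06 on the log2 scale, or by 48.3% (edgeR adjusted p = 8.75e-09), the largest decrease among the glycolysis genes. Hk1, the housekeeping hexokinase, had 653, 553, 587 and 552 CPM in the knockdown libraries and 571, 663, 517 and 627 CPM in the controls. These values overlapped, and the log2 fold change of -0.02 ± 0.07 did not pass (edgeR adjusted p = 0.839). Per length, as length-normalized TPM, Hk1 made up 75.7% ± 1.07 of hexokinase transcripts in knockdown and 62.0% ± 1.02 in control libraries. With all annotated exons as the length in place of the principal transcript, these shares were 60.4% and 44.4%, so the level of the share rests on the transcript chosen. Hkdc1, a hexokinase-like gene outside the set, rose to 13.3 ± 1.51 CPM in knockdown, against 6.18 ± 0.514 CPM in control libraries (1.11 ± 0.10, edgeR adjusted p = 3.19e-07).

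Gpi1, which turns glucose 6-phosphate into fructose 6-phosphate, averaged 1243 ± 51.3 CPM in knockdown and 1313 ± 87.2 CPM in control libraries and did not pass (-0.08, edgeR adjusted p = 0.209). It passed without control replicate 3 (-0.12, edgeR adjusted p = 0.0394).

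Phosphofructokinase makes the committed step, and its 3 isoforms did not move together. Pfkl, the liver type, had 611, 493, 531 and 554 CPM in the knockdown libraries and 642, 703, 561 and 681 CPM in the controls. The groups overlapped, and its decrease (-0.24 ± 0.07, edgeR adjusted p = 0.0110) was lost under total count scaling (edgeR adjusted p = 0.0857). Pfkp, the platelet type, averaged 94.1 ± 3.32 CPM in knockdown and 108 ± 9.52 CPM in control libraries, a decrease (-0.20, edgeR adjusted p = 0.00851) that was also lost under total count scaling (edgeR adjusted p = 0.129). Pfkm, the muscle type, had 111, 102, 102 and 113 CPM in the knockdown libraries and 93.8, 91.0, 89.55 and 90.3 CPM in the controls. All 4 knockdown libraries lay above all controls, and Pfkm rose by 0.23 ± 0.04 on the log2 scale (edgeR adjusted p = 5.81e-04). Its exons overlap those of other genes over 10.7% of their length, and reads there cannot be assigned without strand. By TPM, Pfkm took 18% of phosphofructokinase transcripts in knockdown and 13.8% in control libraries, while Pfkl took 70.9% in knockdown and 74.9% in control libraries. With all annotated exons as the length, Pfkm took 26.5% in knockdown and 20.7% in control libraries.

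Fructose 2,6-bisphosphate, the strongest activator of phosphofructokinase, is made and removed by the bifunctional Pfkfb enzymes. Pfkfb3, the isoform with the highest kinase activity, had 67.5, 66.8, 66.4 and 69.1 CPM in the knockdown libraries and 91.9, 94.4, 89.2 and 92.7 CPM in the controls. With both groups tight and well apart, Pfkfb3 fell by 0.45 ± 0.04 on the log2 scale (edgeR adjusted p = 3.31e-07). Pfkfb4, another HIF-inducible isoform, averaged 41.9 ± 2.03 CPM in knockdown and 53.05 ± 1.197 CPM in control libraries and fell by 0.34 ± 0.05 (edgeR adjusted p = 2.58e-05). Pfkfb1, the liver isoform, at 2.84 ± 0.156 CPM in knockdown and 3.21 ± 0.362 CPM in control libraries, and Pfkfb2, the heart isoform, at 15.9 ± 1.10 CPM in knockdown and 15.7 ± 0.598 CPM in control libraries, did not pass (edgeR adjusted p = 0.272 for Pfkfb1 and 0.894 for Pfkfb2).

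Aldolase splits fructose 1,6-bisphosphate. Aldoc, the brain-type aldolase (chr11:78322968-78327781, plus strand), had 42.5, 33.2, 34.3 and 34.55 CPM in the knockdown libraries and 15.9, 18.6, 15.8 and 17.7 CPM in the controls. No knockdown value came near a control value, and Aldoc rose by 1.09 ± 0.08 on the log2 scale (edgeR adjusted p = 8.46e-08), the largest increase in the set. Aldoa, the main isoform, had 1272, 1171, 1127 and 1183 CPM in the knockdown libraries and 1221, 1220, 1091 and 1199 CPM in the controls. The groups overlapped fully (0.01 ± 0.05, edgeR adjusted p = 0.921). Despite its increase, Aldoc made up 1.62% of aldolase transcripts by TPM in knockdown and 0.773% in control libraries, or 2.64% in knockdown and 1.27% in control libraries with all annotated exons as the length.

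Triose phosphate isomerase, glyceraldehyde 3-phosphate dehydrogenase and phosphoglycerate kinase act in sequence on the triose phosphates, and the first and last of them fell. Tpi1 had 1602, 1495, 1548 and 1510 CPM in the knockdown libraries and 1949, 2101, 1807 and 1955 CPM in the controls. The groups stood apart, with a decrease of -0.34 ± 0.05 on the log2 scale (edgeR adjusted p = 3.31e-05). Pgk1, whose step yields ATP (chrX:106187100-106203699, plus strand), had 1104, 1090, 1082 and 1043 CPM in the knockdown libraries and 1673, 1746, 1574 and 1619 CPM in the controls. It fell by 34.7%, or 0.61 ± 0.04 on the log2 scale (edgeR adjusted p = 3.26e-08), again with no overlap. Near-identical copies of Pgk1 held counts equal to 1.62% of its own in knockdown and 1.47% in control libraries.

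Gapdh, the common reference transcript, was set by 1 library. It had 539.5, 381, 425 and 28.3 CPM in the knockdown libraries, from 23796, 19641, 16656 and 1371 counts, against 583, 581, 492 and 494 CPM in the controls. Knockdown replicate 4 lay 3.73 log2 units below the other 3 knockdown libraries. Among 8078 genes above 20 CPM, only 11 gene and library pairs lay more than 1.5 log2 units beyond the other 3 libraries of their group, and Gapdh in knockdown replicate 4 was the only member among them. In that library Tpi1 and Pgk1 were close to their values in the other knockdown libraries. Annotated near-identical copies of Gapdh numbered 170, of which 121 were in the table, and they summed to 4258 counts in knockdown replicate 4, beside 3392 to 4290 in the other knockdown and 3600 to 4062 in the control libraries. This sum holds Peli2, matched at 90.8% identity, with 514 to 665 counts in knockdown and 407 to 446 in control libraries. The copy Gm13292, picked after its values were seen, had 218 counts in knockdown replicate 4. It had 26 to 32 counts in the other knockdown and 44 to 58 in the control libraries. The part of the copies in the Gapdh value was not tested. Over all 8 libraries the log2 fold change of Gapdh, -0.65 ± 0.50, did not pass (edgeR adjusted p = 0.299), and without knockdown replicate 4 it was -0.26 (edgeR adjusted p = 0.0453). With no filter on low counts the value of -0.65 passed (edgeR adjusted p = 1.05e-42). That fit estimated infinite prior degrees of freedom, which gives every gene the trended spread, against 8.18 with the filter.

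**Figure D2:**
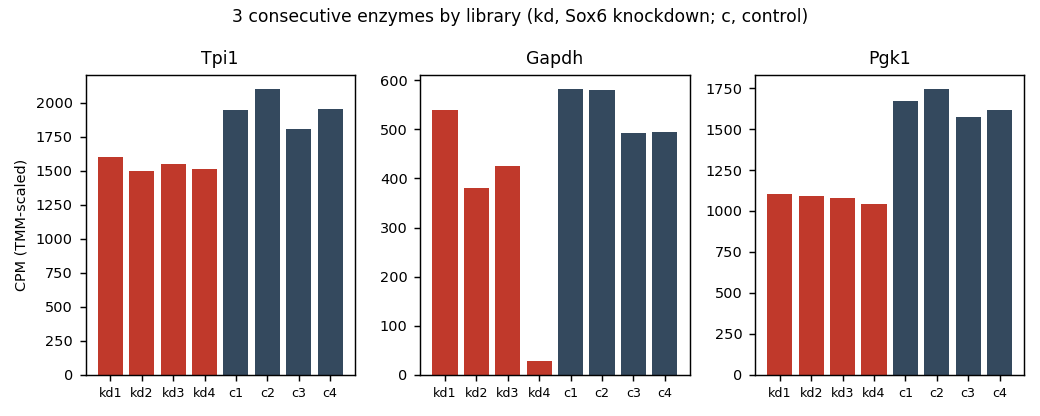
Bars give CPM (TMM-scaled) of Tpi1, Gapdh and Pgk1 in each library, with the 4 knockdown libraries (kd, red) left of the 4 controls (c, dark). Knockdown replicate 4 has 28.3 CPM of Gapdh, while its Tpi1 (1510 CPM) and Pgk1 (1043 CPM) are close to the other knockdown libraries.

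Pgam1, which moves the phosphate of 3-phosphoglycerate, averaged 581 ± 18.3 CPM in knockdown and 668 ± 34.4 CPM in control libraries. Its groups did not overlap, but the decrease (-0.20 ± 0.04, edgeR adjusted p = 0.00165) was lost under total count scaling (edgeR adjusted p = 0.0516).

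Enolase makes phosphoenolpyruvate, and all 3 genes passed, in different directions. Eno1, the ubiquitous enolase, had 1848, 1765, 1794 and 1713 CPM in the knockdown libraries and 2395, 2564, 2313 and 2355 CPM in the controls. The groups stood well apart, and Eno1 fell by 0.44 ± 0.04 on the log2 scale (edgeR adjusted p = 1.53e-06). The gene Eno1b is 99.5% identical to the Eno1 transcript over 85.6% of its length, so reads may be split between them. Eno1b averaged 70.8 ± 5.82 CPM in knockdown and 142 ± 8.19 CPM in control libraries, and the sum of both was 1851 ± 62.0 CPM in knockdown and 2549 ± 112 CPM in control libraries, a log2 ratio of -0.46.

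Eno3, the muscle enolase, had 59.2, 59.0, 59.25 and 69.0 CPM in the knockdown libraries and 112, 102, 109 and 101 CPM in the controls. All knockdown libraries were below all controls (-0.78 ± 0.06, edgeR adjusted p = 5.74e-08). The heart and striated muscle markers fell as well, 6 of 6. Knockdown replicate 4 had the highest Eno3 of its group. It also had the highest summed level of these markers in its group, 98.0 CPM against 26.0 to 48.4 CPM in the other 3. Among the controls the order differed, replicate 4 having the highest marker sum, 365 CPM, and the lowest Eno3, 101 CPM. None of the 6 markers was at 0 over a group, the lowest being Myh7 with 59 counts over the knockdown and 1813 over the control libraries. Their part in the Eno3 result was not tested. Eno2, the neuronal enolase (chr6:124760053-124769673, minus strand), had 20.75, 21.7, 20.9 and 22.8 CPM in the knockdown libraries and 14.6, 15.1, 13.2 and 16.1 CPM in the controls. It rose by 0.55 ± 0.07 on the log2 scale with no overlap (edgeR adjusted p = 1.32e-05). By TPM, Eno1 remained the bulk of the step, at 94.9% in knockdown and 94.2% in control libraries, with Eno2 at 0.834% in knockdown and 0.419% in control libraries and Eno3 at 4.27% in knockdown and 5.39% in control libraries. With all annotated exons as the length, Eno2 stood at 1.23% in knockdown and 0.613% in control libraries and Eno3 at 9.56% in knockdown and 11.9% in control libraries.

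Pkm, the pyruvate kinase gene and by TPM the most abundant member, had 3936, 3306, 3424 and 3540 CPM in the knockdown libraries and 4514, 4802, 4368 and 4565 CPM in the controls. The groups did not overlap, and Pkm fell by 0.36 ± 0.05 on the log2 scale (edgeR adjusted p = 6.60e-05). Gene counts do not separate its M1 and M2 splice forms, and 15.3% of its exon length overlaps other genes.

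Lactate dehydrogenase interconverts pyruvate and lactate. Ldha, the isoform that favours lactate, had 1370, 1321, 1339 and 1390 CPM in the knockdown libraries and 1680, 1746, 1594 and 1697 CPM in the controls. It fell in every knockdown library relative to every control (-0.31 ± 0.04, edgeR adjusted p = 1.99e-05). Ldhb, the heart-type subunit, averaged 5.84 ± 0.619 CPM in knockdown and 9.06 ± 1.26 CPM in control libraries and fell by 0.63 ± 0.11 (edgeR adjusted p = 3.02e-04), alongside the heart and striated muscle markers, whose part was not tested. Ldha held 99.4% of the step by TPM in knockdown and 99.3% in control libraries.

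Lactate leaves through proton-linked monocarboxylate transporters, and both genes in the set fell. Slc16a1 (MCT1) had 69.7, 78.4, 74.8 and 71.7 CPM in the knockdown libraries and 114, 118, 105 and 114 CPM in the controls. The separation was complete, with a decrease of -0.62 ± 0.05 on the log2 scale (edgeR adjusted p = 1.26e-07). Slc16a3 (MCT4), the HIF-inducible exporter, had 88.6, 87.9, 86.1 and 88.7 CPM in the knockdown libraries and 117, 132, 111 and 120 CPM in the controls. It fell by 0.45 ± 0.05 (edgeR adjusted p = 3.48e-06), also without overlap. Bsg, the chaperone that brings both transporters to the membrane, lies outside the set and averaged 1063 ± 65.8 CPM in knockdown and 1520 ± 175 CPM in control libraries (-0.52, edgeR adjusted p = 2.67e-05).

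The pyruvate dehydrogenase kinases hold pyruvate back from the mitochondrial route. Pdk1, the HIF1 target, had 175, 182, 172 and 174 CPM in the knockdown libraries and 192, 210, 185 and 208 CPM in the controls. The groups were close but apart, and the decrease (-0.18 ± 0.05, edgeR adjusted p = 0.00507) was lost under total count scaling (edgeR adjusted p = 0.167). Pdk3 averaged 19.2 ± 0.991 CPM in knockdown and 22.3 ± 0.942 CPM in control libraries, and its decrease (-0.22, edgeR adjusted p = 0.00717) was likewise lost (edgeR adjusted p = 0.128). Pdk2, the widespread isoform, had 18.3, 17.01, 14.7 and 15.97 CPM in the knockdown libraries and 13.4, 14.6, 12.5 and 13.0 CPM in the controls. It rose by 0.31 ± 0.08 on the log2 scale, the lowest knockdown value lying just above the highest control (edgeR adjusted p = 0.00438). Pdk4, the starvation-induced isoform, averaged 8.15 ± 0.747 CPM in knockdown and 7.82 ± 0.874 CPM in control libraries and did not pass (edgeR adjusted p = 0.628).

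Summed over isoforms, per length, the steps differed in how far they were reduced. Lactate transport had 86.1 ± 3.04 TPM in knockdown and 119 ± 5.63 TPM in control libraries, a log2 ratio of -0.47. Phosphoglycerate kinase (-0.56), enolase (-0.39), pyruvate kinase (-0.30), the Pfkfb enzymes (-0.29), triose phosphate isomerase (-0.28), lactate dehydrogenase (-0.25), hexokinase (-0.25), glucose uptake (-0.22) and phosphoglycerate mutase (-0.14) also had knockdown values wholly below the controls. Groups overlapped for phosphofructokinase (-0.10), the pyruvate dehydrogenase kinases (-0.06), glucose phosphate isomerase (-0.02), glyceraldehyde phosphate dehydrogenase (-0.59) and aldolase (0.08). These sums carry no test. TPM are scaled to a fixed total, like total count scaling, so that all these values lie higher than TMM-scaled ones would.

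Isoforms of the same step were also compared within each library, where scaling cancels. Of 25 pairs, 11 had log2 count ratios that did not overlap between groups, a share slightly below the 46.9% for the levels of all tested genes. Each of the 11 had p = 0.0286 by a two-sided exact permutation test over 70 assignments, the smallest p that 4 against 4 allows. Adjusted over the 25 pairs it was 0.0649, so 0 pairs passed 0.05, and 11 had an unadjusted p under 0.05. The differences that follow are therefore descriptions only. The ratio of Hk1 to Hk2 was higher in knockdown by 0.94 on the log2 scale, with means of 1.13 ± 0.0836 in knockdown and 0.190 ± 0.0625 in control libraries. Aldoa to Aldoc was lower by 1.08, at 5.05 ± 0.104 in knockdown and 6.12 ± 0.0968 in control libraries. In enolase, Eno1 to Eno2 differed by -0.98 and Eno2 to Eno3 by 1.33, the widest shift of any pair. Pfkm gained on both partners, with Pfkl to Pfkm at -0.47 and Pfkm to Pfkp at 0.43. Pdk2 did so on Pdk1 (Pdk1 to Pdk2, -0.48) and on Pdk3 (Pdk2 to Pdk3, 0.52). Pfkfb2 gained on Pfkfb3 (0.46) and Pfkfb4 (0.35), and Slc16a1 to Slc16a3 differed by -0.17. For this last pair the groups all but touched, at -0.1651 in knockdown replicate 2 and -0.1647 in control replicate 2. Pairs that overlapped included Ldha to Ldhb (0.32, exact permutation p = 0.0857) and Pfkl to Pfkp (-0.04, exact permutation p = 0.600).

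**Figure D3:**
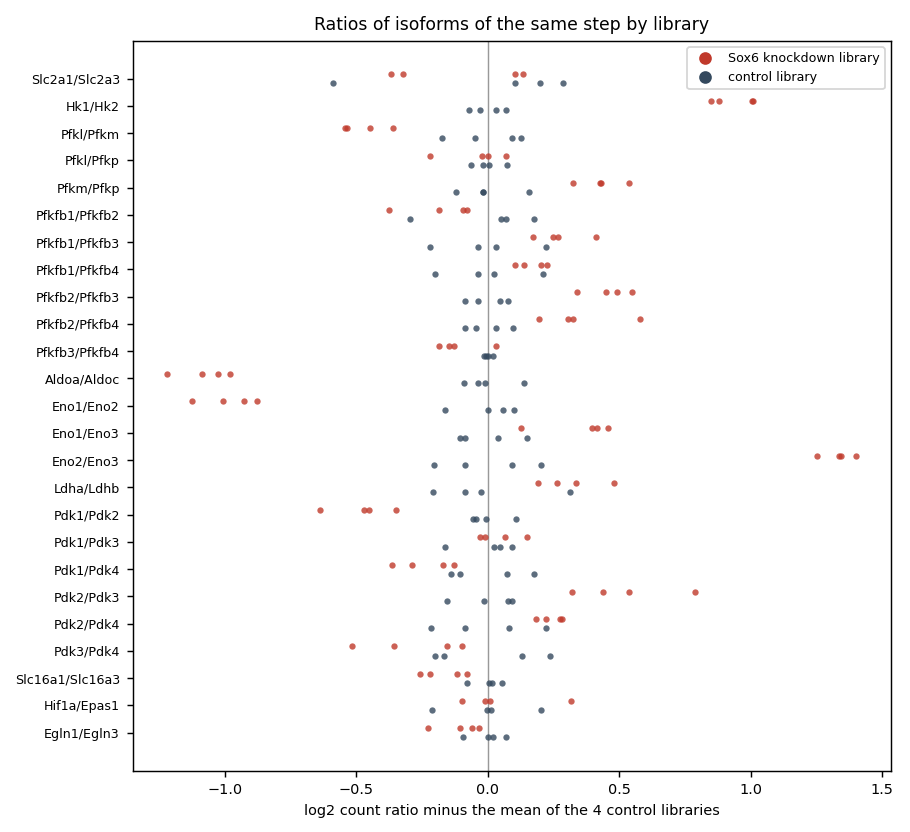
Each row is a pair of isoforms, and the horizontal axis gives the log2 count ratio in each library minus the mean of the 4 control libraries. Red points are knockdown and dark points control libraries. Hk1 to Hk2 and Eno2 to Eno3 lie to the right in all knockdown libraries (differences of 0.94 and 1.33), and Aldoa to Aldoc and Eno1 to Eno2 to the left (-1.08 and -0.98).

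**Figure D4:**
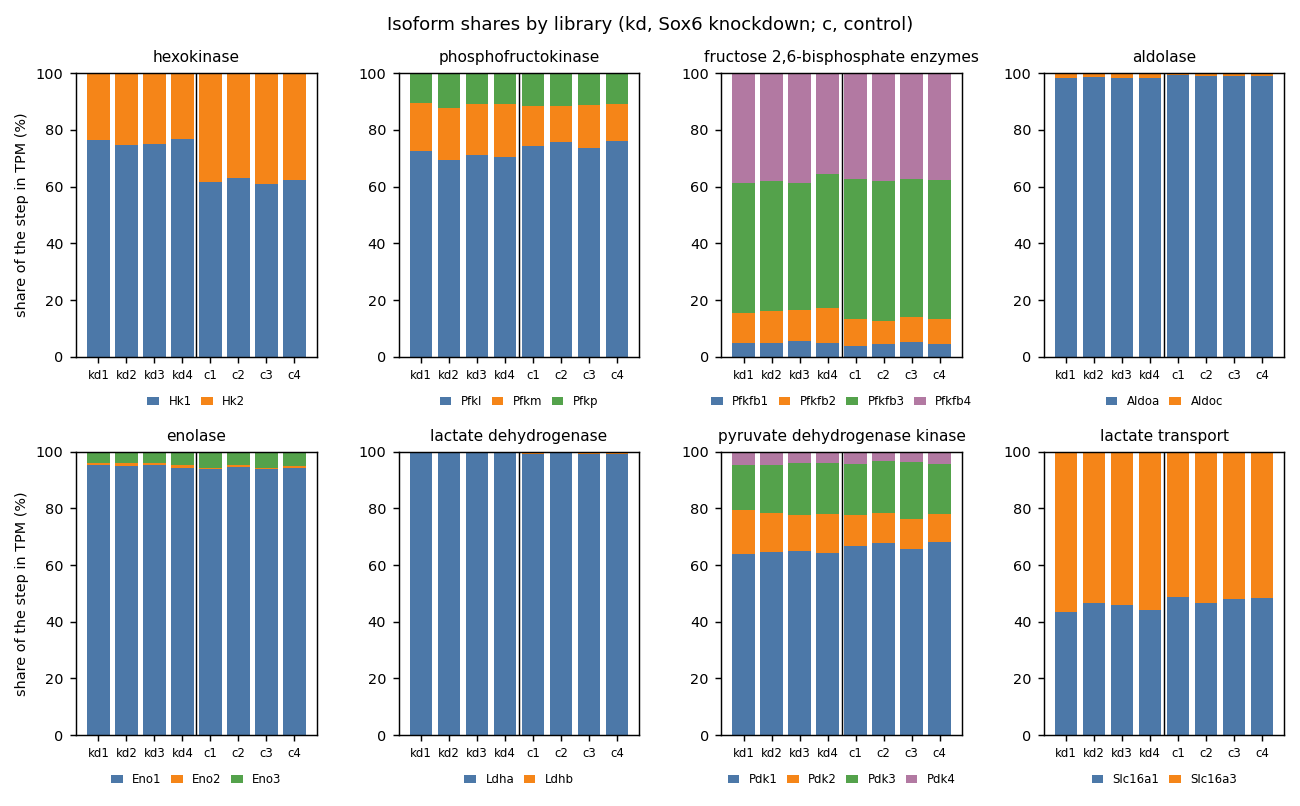
Stacked bars give each isoform's share of its step in TPM (%), with 4 knockdown libraries (kd) left of 4 controls (c) in each panel. The hexokinase panel changes most, Hk1 averaging 75.7% in knockdown and 62.0% in control libraries, while Aldoc, Eno2 and Ldhb stay thin slices in both groups.

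By TPM the most abundant members in both groups were Pkm, Tpi1 and Eno1. Pkm had 3405 ± 202 TPM in knockdown and 4202 ± 118 TPM in control libraries. Tpi1 had 2234 ± 48.0 TPM in knockdown and 2722 ± 132 TPM in control libraries, and Eno1 had 2049 ± 55.5 TPM in knockdown and 2660 ± 93.0 TPM in control libraries. In the controls these last values lay within their spread of each other. Aldoa, which did not pass, had 1834 ± 62.1 TPM in knockdown and 1753 ± 69.95 TPM in control libraries. Its neighbours in that order were Ldha, at 1791 ± 32.9 TPM in knockdown and 2130 ± 53.2 TPM in control libraries, and Pgk1, at 1381 ± 35.5 TPM in knockdown and 2029 ± 65.2 TPM in control libraries. In knockdown libraries Aldoa and Ldha did not differ beyond their spread, whereas in controls Aldoa lay below both Ldha and Pgk1.

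In the HIF pathway both alpha subunits and both hydroxylases in the set were lower. Over the 10 HIF members 6 fell (60.0%, beside 26.0% of all tested genes), 2 rose (20%, beside 25.4%) and 2 did not pass, with a median log2 fold change of -0.31. In 5 (50%) the groups did not overlap, near the 46.9% of all tested genes. Hif1a had 495, 536, 512.5 and 544 CPM in the knockdown libraries and 654, 672, 651 and 677 CPM in the controls. With a wide gap between groups, it fell by 0.35 ± 0.04 on the log2 scale (edgeR adjusted p = 6.48e-06). Epas1, which encodes HIF2 alpha, had 11.4, 9.25, 11.1 and 11.6 CPM in the knockdown libraries and 16.3, 12.6, 13.9 and 14.6 CPM in the controls. It fell by 0.40 ± 0.09 without overlap (edgeR adjusted p = 0.00211). Hif1a made up 98.2% of the alpha subunit transcripts by TPM in both groups.

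Egln1 (PHD2), the main oxygen sensor, had 96.8, 98.3, 94.3 and 96.1 CPM in the knockdown libraries and 121, 135, 112 and 133 CPM in the controls. All knockdown libraries lay below the controls (-0.38 ± 0.05, edgeR adjusted p = 4.86e-05). Egln3 (PHD3), itself HIF-inducible, had 50.9, 59.0, 52.1 and 51.45 CPM in the knockdown libraries and 66.2, 65.9, 57.4 and 67.5 CPM in the controls. It fell by 0.27 ± 0.06 (edgeR adjusted p = 0.00201), although knockdown replicate 2 lay above control replicate 3.

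HIF targets outside glycolysis did not share a direction. Of 6, 2 fell (Vegfa and Adm), 2 rose (Car9 and Kdm3a) and 2 did not pass (Ankrd37 and Ndrg1), with a median log2 fold change of 0.05. Each direction held 33.3%, beside 26.0% lower and 25.4% higher of all tested genes. Vegfa, the angiogenic growth factor, had 130, 139, 131 and 139.5 CPM in the knockdown libraries and 176, 181, 161 and 182 CPM in the controls. It fell by 0.38 ± 0.05 on the log2 scale with no overlap (edgeR adjusted p = 1.10e-05). Adm, the vasodilator peptide adrenomedullin (chr7:110627661-110629820, plus strand), was rare, with 18, 37, 30 and 36 counts in the knockdown libraries and 86, 62, 46 and 90 counts in the controls. In CPM all knockdown libraries were below all controls, 0.408 to 0.766 against 0.979 to 2.25, and Adm fell by 1.33 ± 0.29 on the log2 scale (edgeR adjusted p = 0.00138), the largest change in the set. Endothelial cells also make adrenomedullin, and 5 of 6 endothelial markers were lower, none at 0 over a group, the lowest being Tie1 with 37 counts over the knockdown and 188 over the control libraries. Their part in the Adm result was not tested.

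Car9, the cell-surface carbonic anhydrase, had 2.99, 3.51, 3.22 and 2.52 CPM in the knockdown libraries and 2.02, 2.63, 2.30 and 2.45 CPM in the controls. The groups overlapped, and the increase of 0.38 ± 0.15 on the log2 scale was near the threshold (edgeR adjusted p = 0.0452). It was lost without control replicate 1 (0.125), 3 (0.0853) or 4 (0.0653), without knockdown replicate 1 (0.0666), 2 (0.131) or 3 (0.0930) and with no filter (0.0852), all edgeR adjusted p. Kdm3a, a histone demethylase, had 211, 224, 218 and 229 CPM in the knockdown libraries and 201, 207, 194.5 and 212 CPM in the controls. It rose by 0.11 ± 0.04 with overlap (edgeR adjusted p = 0.0337). That call was lost without control replicate 1 (0.0949), 2 (0.0521) or 3 (0.0936), without knockdown replicate 2 (0.0629) or 4 (0.0875) and with no filter (0.0697), all edgeR adjusted p.

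Ankrd37, a small ankyrin repeat gene, averaged 3.01 ± 0.277 CPM in knockdown and 2.46 ± 0.177 CPM in control libraries (0.29, edgeR adjusted p = 0.0867), and passed under total count scaling (edgeR adjusted p = 0.0223). Its exons overlap those of Lrp2bp and Ufsp2 over 26.4% of their length. Ndrg1, a stress-responsive gene, averaged 102 ± 11.1 CPM in knockdown and 103 ± 14.1 CPM in control libraries and did not pass (-0.01, edgeR adjusted p = 0.915).

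**Figure D5:**
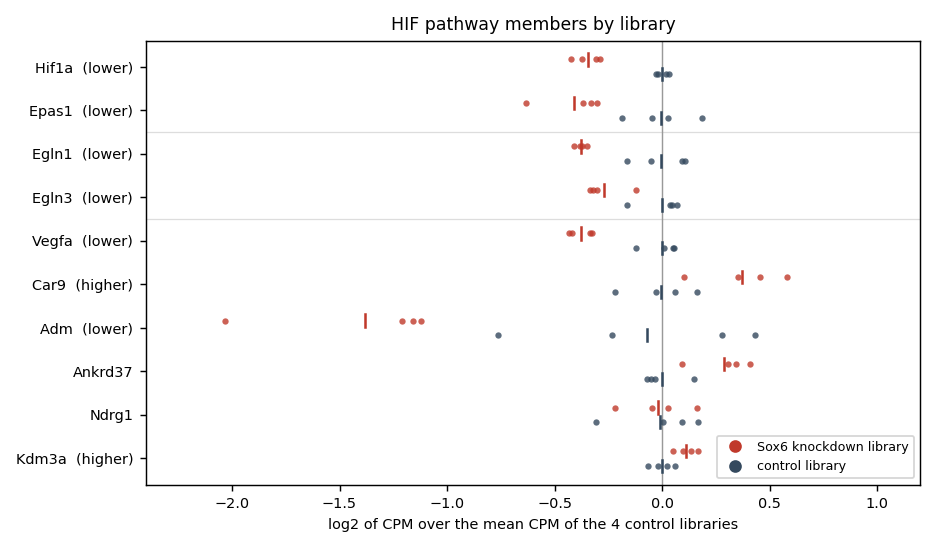
Each row is a HIF pathway gene, and the horizontal axis gives log2 of CPM over the mean CPM of the 4 control libraries. Red points are the 4 knockdown and dark points the 4 control libraries, vertical bars are group means of the log2 values, and the words beside the names give the edgeR call. Hif1a, Epas1, Egln1, Vegfa and Adm lie left of the controls without overlap, while Car9 and Kdm3a lie to the right with overlap.

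Lists of neighbouring pathway genes held calls in both directions. Of 15 tested isoforms and side enzymes of glycolysis outside the set, 4 fell (26.7%) and 5 rose (33.3%), shares near the 26.0% and 25.4% of all tested genes, with a median of 0.05 and with Hkdc1 and Bsg among them. Slc2a9, a urate and hexose transporter, rose by 0.52 on the log2 scale (edgeR adjusted p = 5.27e-05). Of 11 genes of the pyruvate dehydrogenase complex, its phosphatases and the pyruvate carriers, 2 fell (18.2%) and 5 rose (45.5%), with a median of 0.11. Among them Pdha1, the E1 alpha subunit, averaged 134 ± 10.4 CPM in knockdown and 170 ± 2.42 CPM in control libraries (-0.34, edgeR adjusted p = 5.43e-05). Pdp2, a phosphatase that opposes the Pdk kinases, averaged 15.8 ± 0.906 CPM in knockdown and 10.6 ± 0.669 CPM in control libraries (0.57, edgeR adjusted p = 1.25e-05). Mpc2, a mitochondrial pyruvate carrier subunit, and Pcx, pyruvate carboxylase, rose by 0.43 and 0.39.

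Of 16 tested HIF regulators, 8 rose (50%, beside 25.4% of all tested genes) and 1 fell (6.25%, beside 26.0%), with a median of 0.11, the 1 being the ubiquitin ligase Siah2 (-0.44), named after its value was seen. Arnt, the beta subunit that pairs with the alpha subunits, averaged 113 ± 4.37 CPM in knockdown and 87.4 ± 0.614 CPM in control libraries (0.37, edgeR adjusted p = 3.02e-06). Cited2, which competes with HIF for its coactivators, averaged 49.4 ± 4.06 CPM in knockdown and 30.3 ± 1.05 CPM in control libraries (0.71, edgeR adjusted p = 2.25e-07). Of 57 further HIF targets, 29 fell (50.9%) and 13 rose (22.8%), beside 26.0% and 25.4% of all tested genes, with a median of -0.22. Angptl4, a lipoprotein lipase inhibitor, fell by 1.31 on the log2 scale (edgeR adjusted p = 3.15e-09), and Maff, a small bZIP factor, fell by 0.99 (edgeR adjusted p = 3.06e-09). Ddit4, an mTORC1 inhibitor, rose by 0.82 (edgeR adjusted p = 2.81e-09). This list holds the endothelial markers Kdr and Tek, both of which fell, and its genes also respond to pathways other than HIF.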

How the data were processed

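Per the labels, TRIzol was used to extract RNA and the NEBNext Ultra kit to make libraries. The values are whole-number read counts per gene as deposited, not normalized by the authors. The submitters' processing notes name mm10 and DESeq2, but no aligner, counting tool or strand setting, which the sources used here do not give. Overlapping genes on opposite strands can therefore not be told apart. Symbols and lengths came from GENCODE M21 for 30008 of 30660 identifiers, and 652 had none.

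Knockdown was compared with control in R 4.3.3 with edgeR 4.0.16 (filterByExpr with a minimum count of 10, TMM, glmQLFit and glmQLFTest) over all 8 libraries, with Benjamini-Hochberg adjusted p under 0.05 called. The SE of a log2 fold change is its absolute value divided by the square root of the F statistic of that test, not a separate estimate. CPM use TMM-scaled library sizes, except for Sox6, which is scaled to total counts. TPM use the longest principal transcript. Where identifiers shared a symbol, the one with most counts was used. Isoform ratios are log2 of counts with 0.5 added, tested by exact permutation. Near-identical copies were found with BLAST 2.17.0 (at least 90% identity over 30% of the transcript). Promoters came from RefSeq GRCm38.p6.

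The members and lists were chosen with earlier results of these data known. All members are named, with Sox6 and up to 4 called genes of each further list, by smallest p. A gene taken by this rule is not reported here. Chi-square per degree of freedom between libraries of 1 group ran from 6.15 to 17.6, more than counting noise gives, so none was counted as a repeat deposit of another. The common biological coefficient of variation was 0.0777. On simulated data for this comparison (15912 genes) the test recovered 13 of 50 genes changed by 1.2 fold, 35 of 50 at 1.5 fold, 38 of 50 at 2 fold and 49 of 50 at 4 fold, with 4 false among 139 calls. No other genes were changed in the simulation, whereas 4206 genes were called lower and 4105 higher in the data. The adjusted threshold is stricter where fewer genes change, so these recovered counts do not give the power of the test in the data. The alternatives tried were limma-voom (limma 3.58.1) and DESeq2 1.42.0 as tools, scaling by upper quartile, by total counts or by the size factors of DESeq2, testing all genes or those with 1 CPM in 4 libraries, a replicate block, halved counts, an adjusted p under 0.01 and leaving out each library. The length alternative for TPM is the union of exons.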

Additional observations from a re-analysis of the deposited data

Results flagged for a closer look

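Levels of the 40 members and the 25 isoform ratios were searched within each group of 4 libraries, 130 groups in all, for a library far from the other 3 by Dixon's test. It picked 8, all levels of members, where chance picks about 1 in 20. Aldoc was 42.5 CPM in knockdown replicate 1, above 33.2 to 34.5 in the other knockdown libraries. Eno3 was 69.0 CPM in knockdown replicate 4, above 59.0 to 59.2. Pdk3 was 17.7 CPM in knockdown replicate 1, below 19.6 to 19.7. Egln3 was 59.0 CPM in knockdown replicate 2, above 50.9 to 52.1, and 57.4 CPM in control replicate 3, below 65.9 to 67.5 in the other controls. Adm was 0.408 CPM in knockdown replicate 1, below 0.718 to 0.766. Aldoa was 1091 CPM in control replicate 3, below 1199 to 1221, and Ankrd37 was 2.72 CPM in control replicate 2, above 2.34 to 2.40.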

How the results depend on the processing

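Over the settings tried, 17 to 19 glycolysis genes were called lower except for 13 under total count scaling, and 4 were called higher in all. HIF members called lower numbered 6, or 5 with the filter of 1 CPM. HIF members called higher were 2, against 3 with total count scaling, 0 with no filter, 1 with the replicate block, 0 at an adjusted p under 0.01 and 0 to 1 when libraries were left out singly. The replicate numbers did not pair libraries (correlations of same-numbered deviations of 0.00, -0.03, 0.03 and 0.06), and the block took away the call of Car9 (edgeR adjusted p = 0.0562). Reversed signs were all among values that did not pass. Hk1 had a log2 fold change of 0.0201 with upper quartile and 0.0818 with total count scaling, Ndrg1 of 0.0267 and 0.0885, and Gpi1 of 0.0218 with total count scaling. When libraries were left out singly, the log2 fold change ran from -0.0829 to 0.0352 for Hk1, from -0.105 to 0.0517 for Ndrg1, from -0.0307 to 0.0497 for Pfkfb2 and from -0.0324 to 0.0323 for Aldoa. The ratio difference ran from -0.0784 to 0.0175 for Pfkl to Pfkp, from -0.0106 to 0.0749 for Pdk1 to Pdk3 and from -0.0329 to 0.122 for Hif1a to Epas1. The Sox6 difference ran from -0.128 to -0.087 CPM without 1 library, with an exact permutation p = 0.0571, the smallest that 3 against 4 can give. No isoform pair passed in any setting, and neither the block nor leaving out a library could reach the threshold. Without length scaling, step sums were further below control: hexokinase -0.38, the Pfkfb enzymes -0.36, enolase -0.44, lactate dehydrogenase -0.31, pyruvate dehydrogenase kinases -0.14 and lactate transport -0.53, where TMM replaced a fixed total. The causes of the other differences were not tested.

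Counts were halved for the case that both reads of a pair were counted. With halved counts 18 glycolysis genes were lower and 4 higher, and 6 HIF members were lower and 2 higher. Adm, the rarest member, rests on 18 to 90 counts per library.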

Other observations

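Of 11 tested pentose phosphate genes, 3 fell (27.3%) and 2 rose (18.2%), near the 26.0% that fell and 25.4% that rose among all tested genes, with a median log2 fold change of 0.06. G6pdx, which opens the pathway, averaged 344 ± 13.8 CPM in knockdown and 399 ± 6.12 CPM in control libraries (-0.21, edgeR adjusted p = 3.87e-04). H6pd, its counterpart in the endoplasmic reticulum, averaged 124 ± 6.44 CPM in knockdown and 170 ± 6.05 CPM in control libraries (-0.45, edgeR adjusted p = 1.46e-06), and Prps1, which makes phosphoribosyl pyrophosphate, fell by 0.40. Taldo1, transaldolase, rose by 0.24. Of 14 tested genes of gluconeogenesis and glycogen, 5 fell (35.7%) and 4 rose (28.6%), with a median of -0.03. Pgm1, phosphoglucomutase, fell by 0.29, G6pc3, a widespread glucose 6-phosphatase, by 0.33 and Pygb, brain-type glycogen phosphorylase, by 0.23. Ugp2, which makes UDP-glucose, rose by 0.31.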
